A study of Mus musculus with 6 samples.

Results

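Interferon-stimulated genes are the genes that cells switch on when an interferon binds its receptor. A set of 42 of them, named by symbol, was followed here in sorted bone marrow monocytes (BMDM) and brainstem microglia (BSM) of the mouse. All 42 were found by symbol among the 35237 genes of the deposited Cufflinks table and again among the 36536 genes of the deposited ALEXA-Seq table. The rule names symbols only and uses no measured value, but the genes were chosen with earlier results of these data known.

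RNA-Seq was performed on 3 BMDM and 3 BSM libraries, each from cells sorted by FACS from a pool of C57BL/6 mice that were 6 weeks old. BMDM were gated as CD11b+ CD45high CD115+ Ly6G- cells and BSM as CD11b+ CD45low CD115low Ly6G- cells. According to the labels the mice of replicate 1 were male, for BMDM and BSM alike, and those of replicates 2 and 3 were female. The paper's RNA quality list gives the same sexes, whereas its Results text describes the mice as male. The labels name no treatment with interferon or a virus, and all cells had passed through sorting and RNA amplification. Since the libraries are bulk samples, a lower value cannot be told apart from fewer expressing cells or from less RNA per cell.

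As background, type I interferons bind the receptor Ifnar1/Ifnar2 and interferon gamma binds Ifngr1/Ifngr2. The receptors act through JAK kinases on transcription factors, which bind an interferon-stimulated response element or the shorter GAS element in the promoters of target genes. The products block viruses at entry (the IFITM family) or degrade or sense foreign RNA and DNA (the OAS family, Ddx58, Ifih1, Zbp1, the Ifi200 family). Others attach the small protein Isg15 to other proteins or take part in the defence against microbes in vacuoles (the GTPases Irgm1, Igtp, Gbp2 and Gbp3). Many are also transcribed at a low level with no infection present, and monocytes and microglia are both able to respond to interferon.

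The libraries carried the markers of their labels. The summed FPKM (fragments per gene, corrected for transcript length and for sequencing depth) of 11 microglia markers was between 1057 and 1234 in BSM and between 37.7 and 42.4 in BMDM, and that of 9 monocyte markers was between 791 and 874 in BMDM and between 168 and 358 in BSM. Ccr2, a monocyte marker that was not part of the gate, was between 136 and 166 in BMDM and no higher than 0.408 in BSM. Csf1r, which is on both lists, was higher in BSM, at 102 or more against at most 21.3 in BMDM. Itgam, the CD11b by which all cells were gated, was 176 and 100.5 in BSM replicates 1 and 3 but was listed at 0 in BSM replicate 2. The ALEXA-Seq table gave it 2435 in that library, so an FPKM of 0 in this table can be a failed estimate. Some libraries also differed from the others of their group. BMDM replicate 2 had a summed FPKM of 540 over 12 granulocyte markers, against 75.9 and 118 in the other BMDM libraries and at most 0.139 in BSM, and 119 over 8 erythroid markers, against 27.9 and 19.1. Ly6g, which the sort excluded, was listed at 0 in BMDM replicates 1 and 3 and at 0.293 in replicate 2, and the highest of the granulocyte markers in BMDM replicate 2 was Mpo, a granule enzyme, at 181. BSM replicate 1 was made from far less RNA than the other libraries and had by far the lowest RNA integrity number in the paper. It listed 7.42% of the 6364 tested genes at 0, against between 0.801% and 1.81% in the other 5 libraries. Counts over the set are given with and without either library, and single genes where leaving 1 out changed a call or moved the estimate by more than 0.5 on the log2 scale. The part that granulocyte RNA, a low RNA input or a low RNA integrity has in them was not tested.

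The 42 genes together made up a larger share of the BMDM libraries. In BMDM they summed to between 0.931% and 0.999% of all FPKM and in BSM to between 0.0982% and 0.110%, with no overlap. Ifitm3 alone supplied between 42.8% and 54.4% of this sum in BMDM and between 2.08% and 5.28% in BSM. Without Ifitm3 the genes summed to FPKM of 907, 824 and 968 in BMDM replicates 1, 2 and 3 and of 74.5, 69.8 and 65.1 in BSM replicates 1, 2 and 3. Of the 42 genes, 26, 27 and 27 had an FPKM of 3 or more in BMDM replicates 1, 2 and 3, and 6, 8 and 7 in those of BSM. No count over all genes is set beside these, and the FPKM of all genes also summed higher in BMDM.

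**Figure D1:**
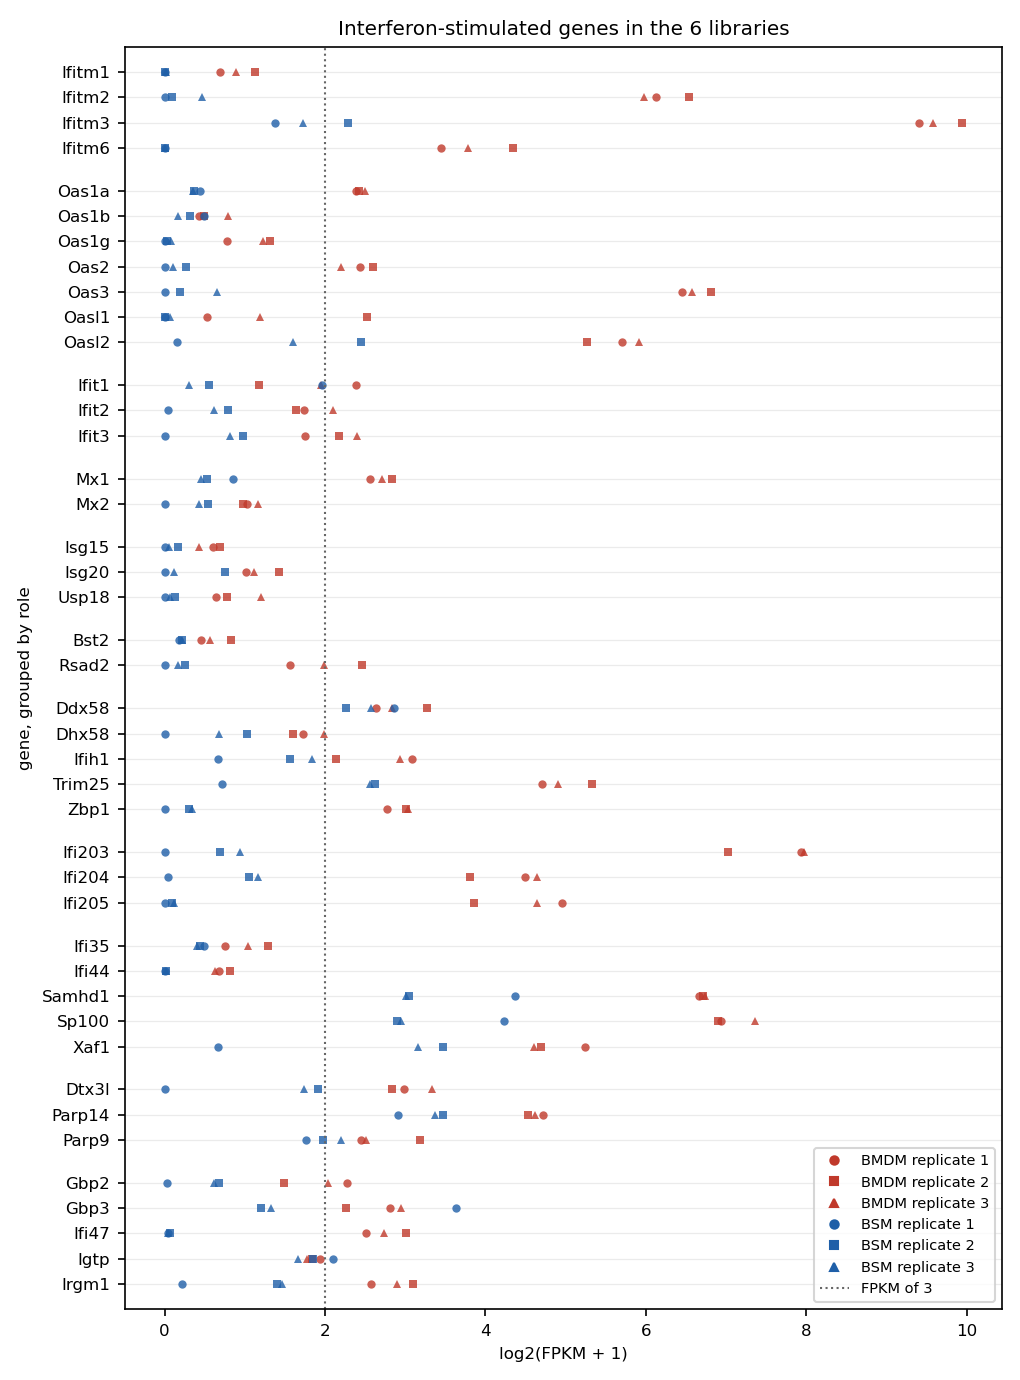
Log2(FPKM + 1) of the 42 interferon-stimulated genes (rows, grouped by role) in the 6 libraries, with BMDM in red, BSM in blue, a different symbol for each replicate, and a dotted line at an FPKM of 3. In 37 of the 42 rows every BMDM point lies to the right of every BSM point, and BSM replicate 1 is often the lowest of the BSM points.

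The comparison of BMDM with BSM was made by limma on log2(FPKM + 1) for all 6364 genes that reached an FPKM of 3 in any library, and a gene was called differentially expressed at a Benjamini-Hochberg adjusted p-value under 0.05 over all of them. Of the 42 interferon-stimulated genes 31 reached the minimum. Of these, 20 reached it only in BMDM, 10 in both cell types and 1, Igtp, only in BSM, so most of the tested genes could enter only by being high in BMDM. Of the 31, 25 were higher in BMDM and none was higher in BSM, where 45.3% and 9.22% of all tested genes were called in these directions. With no minimum, 28 of the 42 were higher in BMDM, against 14.9% of 21167 genes.

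The groups did not overlap, with BMDM above BSM, for 37 of the 42 genes, where this held for 30.0% of the 21167 genes with any value above 0. Among the tested genes it held for 27 of 31, against 55.2% of all. In the ALEXA-Seq values, a second quantification of the same libraries, 24 of 31 tested genes were higher in BMDM and none was higher in BSM, where 37.1% of the tested genes were higher in BMDM. Both tables tested 30 of the genes, and 23 of these were higher in BMDM in each of them, against 38.1% of the genes tested in both tables. With 3 libraries against 3, an exact permutation test on 1 gene cannot reach a two-sided p-value under 0.1, so the adjusted p-values below all come from the limma fits across all genes.

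The FPKM of all genes summed to between 163199 and 194184 in the BMDM libraries but to between 68288 and 75021 in those of BSM, and most tested genes had a log2 fold change above 0. Over all tested genes the log2 fold change had a median of 0.81, and over the 31 interferon-stimulated genes it had a median of 2.10. After quantile normalization, which gives every library the same distribution of values, the medians were 0.02 for all tested genes and 1.32 for the 31. Then 18 of the 31 were higher in BMDM, against 21.7% of all tested genes, and 1, Igtp, was higher in BSM, against 19.3%. All 18 were among the 25 called with the deposited values. Scaling all libraries to the same sum gave 17 higher in BMDM (15.2% of all tested genes) and again Igtp higher in BSM (24.9%), with a median of -0.23 for all tested genes. Leaving out BMDM replicate 2 left 23 called, without Rsad2, which then no longer reached the minimum, and Xaf1. Of all tested genes 44.8% were then called in either direction, against 54.5% with all libraries. Leaving out BSM replicate 1 kept all 25 and added Gbp3 and Ifit1, and the share of all tested genes called rose to 63.7%.

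**Figure D2:**
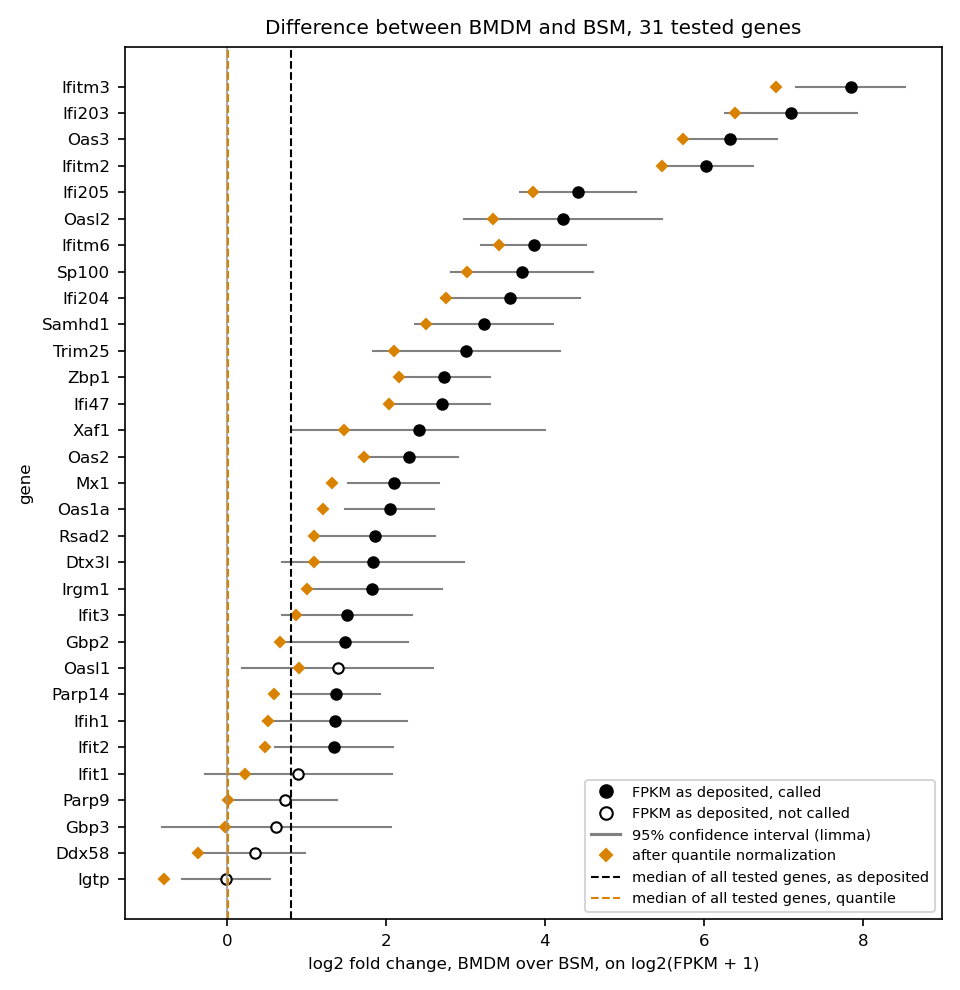
Log2 fold change of BMDM over BSM, on the log2(FPKM + 1) scale, for the 31 interferon-stimulated genes that reached an FPKM of 3, with 95% confidence intervals from limma (grey lines), filled circles for the 25 called genes, open circles for the 6 not called, and orange diamonds for the values after quantile normalization. The dashed lines mark the medians of all 6364 tested genes, 0.81 as deposited and 0.02 after quantile normalization, and the estimates run from -0.02 for Igtp to 7.85 for Ifitm3.

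The promoters of the genes were searched for the elements through which interferon acts, because a reader can then set the sequence beside the values. RefSeq windows of 300 bases (250 before and 50 after a transcription start, build GRCm38.p6) were found for 32 of the 42 genes. The core of the interferon-stimulated response element, GAAANNGAAA or TTTCNNTTTC on the other strand, occurred in the windows of 18 of the 32 genes (56.2%) and of 1079 of all 27025 genes with a window (3.99%). The GAS element TTCNNNGAA, which reads the same on either strand, occurred in 9 of the 32 (28.1%) and in 9.55% of all genes. The response elements of the 5 genes with the largest differences, of 4 genes that were not called, and of the near-identical pair Oas1a and Oas1g are printed 5′ to 3′ on the strand of the gene, with the elements in capitals.
Ifitm3, chr7:141010716-141010742, minus strand, from 2 bases after the start: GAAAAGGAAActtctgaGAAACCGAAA
Ifi203, chr1:173942503-173942542, minus strand, element 25 bases before the start: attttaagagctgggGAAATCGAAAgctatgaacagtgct
Oas3, chr5:120777710-120777749, minus strand, element 65 bases before the start: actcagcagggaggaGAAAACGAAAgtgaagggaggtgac
Ifitm2, chr7:140955983-140956022, minus strand, element 36 bases before the start: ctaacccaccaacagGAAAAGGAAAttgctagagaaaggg
Ifi205, chr1:174031865-174031904, minus strand, element 124 bases before the start: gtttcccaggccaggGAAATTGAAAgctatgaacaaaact
Igtp, chr11:58199507-58199546, plus strand, element 24 bases before the start: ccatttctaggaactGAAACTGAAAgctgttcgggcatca
Gbp3, chr3:142559984-142560029, plus strand, elements ending 29 bases before the start: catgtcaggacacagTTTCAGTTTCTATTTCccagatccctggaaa
Ifit1, chr19:34640770-34640828, plus strand, elements ending 75 bases before the start: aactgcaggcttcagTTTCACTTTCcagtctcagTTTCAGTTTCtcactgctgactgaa
Ddx58, chr4:40239814-40239823, minus strand, 2 bases after the start: TTTCGATTTC
Oas1a, chr5:120907526-120907560, minus strand, elements ending 4 bases before the start: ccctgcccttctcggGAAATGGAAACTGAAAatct
Oas1g, chr5:120887614-120887646, minus strand, elements ending 2 bases before the start: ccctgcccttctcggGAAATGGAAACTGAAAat

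The element was present in genes with large and with small differences alike. Among the genes with a window that were called higher in BMDM, 11 held the element and 9 did not, and among those not called 4 held it and 1, Oasl1, did not. Igtp and Ifi203 each carry a single core before the start, although their log2 fold changes were -0.02 and 7.10. Ifi203 and Gbp3 have 2 windows each, for different starts, and only 1 of the 2 holds the element. The whole printed stretch of Oas1g is contained in that of Oas1a. Ifi205 holds a second match that is not printed in its stretch, TTTCACTTTC, from 23 bases after the start. A match of these letters is a description of the sequence and not a measured binding site.

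The IFITM genes, which encode small membrane proteins that block the fusion of virus and cell, lie side by side on chromosome 7 and held the largest difference. Ifitm3 (mm9 chr7:148195489-148196612) had FPKM of 679, 983 and 765 in BMDM replicates 1, 2 and 3 and of 1.59, 3.89 and 2.32 in BSM replicates 1, 2 and 3. By FPKM it ranked between 12 and 15 among all genes in BMDM and between 2831 and 4248 in BSM. The log2 fold change was 7.85 ± 0.29 (SE, adjusted p = 2.59e-06 by limma), and it was 6.91 after quantile normalization. The ratio of the group means was 311, and it was 261 without BSM replicate 1.

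Ifitm2 (mm9 chr7:148140736-148141860) had FPKM of 68.6, 91.7 and 61.7 in BMDM, and in BSM it was listed at 0 in replicate 1 and had 0.0641 and 0.383 in replicates 2 and 3. All BMDM libraries lay far above all BSM libraries, with a log2 fold change of 6.02 ± 0.26 (SE, adjusted p = 3.07e-06 by limma). The ALEXA-Seq table gave Ifitm2 a value of 11.3 in BSM replicate 1, where the FPKM is 0, and 69.8% of its longest transcript has a near-identical copy in other annotated genes, so its low BSM values are uncertain. Ifitm6, a family member known from the bone marrow, had FPKM of 9.91, 19.3 and 12.8 in BMDM and was listed at 0 in all 3 BSM libraries in both tables. Its fitted log2 difference was 3.86 ± 0.29 (SE, adjusted p = 3.52e-05 by limma). Ifitm1 stayed below the minimum, at 0.618, 1.18 and 0.855 in BMDM, and was listed at 0 in BSM replicates 1 and 2 and at 0.0139 in replicate 3. All 4 IFITM genes were highest in BMDM replicate 2, the library with the high granulocyte and erythroid sums, and without that library the log2 fold change was 7.70 for Ifitm3 and 3.62 for Ifitm6.

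The OAS genes encode enzymes that make 2-5A, the signal that activates RNase L, and OAS-like relatives, all on chromosome 5. Of the 7, 5 were tested and 4 (Oas1a, Oas2, Oas3 and Oasl2) were higher in BMDM, with and without quantile normalization. Oas3 (mm9 chr5:121203107-121227668) had FPKM of 86.2, 111 and 94.0 in BMDM, was listed at 0 in BSM replicate 1 and had 0.142 and 0.573 in BSM replicates 2 and 3. All BMDM libraries lay above all BSM libraries, with a log2 fold change of 6.33 ± 0.26 (SE, adjusted p = 2.91e-06 by limma).

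Oasl2, an OAS-like protein with ubiquitin-like domains, had FPKM of 51.3, 37.6 and 59.1 in BMDM and of 0.114, 4.44 and 2.04 in BSM. In proportion to their level the BSM libraries differed more among themselves than the BMDM libraries did, and the log2 fold change was 4.23 ± 0.54 (SE, adjusted p = 0.000522 by limma), or 3.61 without BSM replicate 1. Oas2 was between 3.61 and 5.03 in BMDM and at most 0.202 in BSM, with a log2 fold change of 2.28. Oas1a was between 4.24 and 4.64 in BMDM and between 0.278 and 0.363 in BSM, with a log2 fold change of 2.05. All of its longest transcript has a near-identical copy in Oas1g, and 94.1% of that of Oas1g in Oas1a, so reads could be exchanged between them. Oas1g was itself below the minimum in the FPKM table, at 0.719, 1.49 and 1.34 in BMDM and at most 0.0532 in BSM, and in the ALEXA-Seq table its log2 fold change was 4.73 (adjusted p = 0.00105 by limma).

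Oasl1, which restrains translation of Irf7 in the mouse, was tested but not called. Its FPKM were 0.443, 4.76 and 1.27 in BMDM, it was listed at 0 in BSM replicates 1 and 2 and it had 0.047 in BSM replicate 3. The groups did not overlap, but Oasl1 reached the minimum only through BMDM replicate 2, and its log2 fold change was 1.39 ± 0.52 (SE, adjusted p = 0.0513 by limma). In the ALEXA-Seq table BMDM replicate 2 was not the highest, with values of 2.80, 5.40 and 10.2 in the BMDM libraries. Oas1b was below the minimum, with 0.348, 0.406 and 0.724 in BMDM and 0.405, 0.243 and 0.118 in BSM, so that the groups overlapped.

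The IFIT genes, whose products bind viral RNA, are often used as a readout of type I interferon and were low in all libraries, with no FPKM above 4.29. Ifit3 had FPKM of 2.37, 3.49 and 4.29 in BMDM, was listed at 0 in BSM replicate 1 and had 0.974 and 0.760 in BSM replicates 2 and 3. The difference in log2 was 1.51 ± 0.35 (SE, adjusted p = 0.00865 by limma), and after quantile normalization it was 0.86 (adjusted p = 0.0789). With the ALEXA-Seq values Ifit3 was not called (adjusted p = 0.0574 by limma). The near-identical gene Ifit3b copies 97.4% of its longest transcript. Ifit2 had FPKM of 2.33, 2.12 and 3.30 in BMDM and of 0.0292, 0.725 and 0.528 in BSM, without overlap. Its log2 fold change of 1.35 ± 0.32 (SE, adjusted p = 0.00935 by limma) became 0.48 (adjusted p = 0.184) after quantile normalization.

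Ifit1 had FPKM of 4.22, 1.26 and 2.86 in BMDM and of 2.902, 0.467 and 0.236 in BSM. BSM replicate 1 lay above BMDM replicates 2 and 3, so the groups overlapped, and Ifit1 was not called, with a log2 fold change of 0.90 ± 0.51 (SE, adjusted p = 0.167 by limma). Without BSM replicate 1 the log2 fold change was 1.41 (adjusted p = 0.0173 by limma). Among the 3 IFIT genes BSM replicate 1 was thus the highest BSM library for Ifit1 and the lowest for Ifit2 and Ifit3.

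The Mx genes encode dynamin-like GTPases that trap viral particles, and C57BL/6 mice carry a defective Mx1 gene that is still transcribed. Mx1 had FPKM of 4.92, 6.15 and 5.53 in BMDM and of 0.798, 0.443 and 0.364 in BSM, with a log2 fold change of 2.10 ± 0.25 (SE, adjusted p = 0.000371 by limma). Mx2 was below the minimum, between 0.970 and 1.25 in BMDM and at most 0.453 in BSM, and 34.0% of its transcript has a near-identical copy in Mx1.

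Of the set, Isg15, Usp18 and Isg20 had low FPKM in both cell types, and the rest of the Isg15 pathway is not described by them. Isg15, the small protein that is conjugated to others, had FPKM of 0.520, 0.618 and 0.351 in BMDM, was listed at 0 in BSM replicate 1 and had 0.123 and 0.0407 in BSM replicates 2 and 3. Usp18, which removes Isg15 and dampens receptor signalling, was between 0.561 and 1.29 in BMDM and at most 0.0928 in BSM. Isg20, an exonuclease, was between 1.03 and 1.69 in BMDM and at most 0.684 in BSM. All 3 stayed below the minimum and were not tested, and none of them overlapped between the groups. Isg15 has a near-identical copy over 63.8% of its longest transcript, so its low values are uncertain.

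Of the membrane-bound antiviral proteins, Rsad2 (viperin) had FPKM of 1.96, 4.49 and 2.96 in BMDM and of 0.00281, 0.196 and 0.123 in BSM. Rsad2 had a log2 fold change of 1.86 ± 0.33 (SE, adjusted p = 0.00244 by limma). It passed the minimum only through BMDM replicate 2. Bst2 (tetherin), which holds budding viruses on the cell, was below the minimum, with 0.371, 0.775 and 0.475 in BMDM and between 0.130 and 0.165 in BSM.

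The sensors of nucleic acid differed from each other. Trim25, a ubiquitin ligase of the RIG-I pathway, had FPKM of 25.2, 39.1 and 28.9 in BMDM and of 0.649, 5.17 and 4.90 in BSM, with a log2 fold change of 3.01 ± 0.51 (SE, adjusted p = 0.00199 by limma), or 2.39 without BSM replicate 1. Zbp1, a sensor of Z-form nucleic acid, was between 5.83 and 7.22 in BMDM and at most 0.263 in BSM, with a log2 fold change of 2.73. For both genes all BMDM libraries lay above all BSM libraries.

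Ifih1 (MDA5), which binds long double-stranded RNA, had FPKM of 7.46, 3.38 and 6.66 in BMDM and of 0.588, 1.96 and 2.57 in BSM. The groups did not overlap, but the lowest BMDM library was close to the highest BSM library. For Ifih1 the log2 fold change was 1.36 ± 0.39 (SE, adjusted p = 0.0203 by limma), and it was 0.51 (adjusted p = 0.294) after quantile normalization. Ddx58 (RIG-I), which binds the ends of viral RNA, had FPKM of 5.21, 8.62 and 6.13 in BMDM and of 6.25, 3.79 and 4.97 in BSM, so that BSM replicate 1 lay within the BMDM range. The estimate was a log2 fold change of 0.35 with a 95% confidence interval from -0.29 to 0.98 (adjusted p = 0.311 by limma), and it was -0.37 after quantile normalization, so its direction depended on the scaling. Dhx58 (LGP2), a regulator of both sensors, was below the minimum, with at most 2.95 in BMDM and 1.03 in BSM.

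The set holds 3 genes of the Ifi200 family, which encode DNA-binding proteins with pyrin domains and lie together on chromosome 1. All 3 were higher in BMDM in both tables. Ifi203 (mm9 chr1:175705968-175872803) had FPKM of 244, 129 and 249 in BMDM and of 0.004, 0.607 and 0.913 in BSM. In log2 the difference was 7.10 ± 0.36 (SE, adjusted p = 6.28e-06 by limma). Ifi205 (mm9 chr1:175942129-175961886) had FPKM of 30.1, 13.6 and 23.9 in BMDM, was listed at 0 in BSM replicate 1 and had 0.0685 and 0.0868 in BSM replicates 2 and 3, with a log2 fold change of 4.41 ± 0.31 (SE, adjusted p = 3.06e-05 by limma). Ifi204 had FPKM of 21.6, 13.04 and 24.0 in BMDM and of 0.0278, 1.08 and 1.25 in BSM, with a log2 fold change of 3.56.

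BMDM replicate 2 was the lowest BMDM library for all 3 Ifi200 genes, in contrast to the IFITM genes. These genes share sequence, with near-identical copies over 59.4% of the longest transcript of Ifi204 and over 38.1% of that of Ifi203, and the locus of Ifi203 overlaps that of Mnda in the deposited table, so the division of reads among them is uncertain. The loci of Ifi47 and Olfr56 overlap in the same way, and those of Oasl1, Dhx58, Ifi35 and Sp100 overlap genes listed by an Ensembl identifier only.

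Among the nuclear and other effectors, Samhd1 and Sp100 were above an FPKM of 3 in all 6 libraries. Samhd1, an enzyme that depletes deoxynucleotides and restricts retroviruses, had FPKM of 100.2, 103.9 and 105.6 in BMDM and of 19.6, 7.28 and 7.05 in BSM. Its log2 fold change was 3.23 ± 0.38 (SE, adjusted p = 0.000328 by limma). Sp100, a component of nuclear bodies, had FPKM of 122, 118 and 163 in BMDM and of 17.9, 6.43 and 6.73 in BSM, with a log2 fold change of 3.71 ± 0.39 (SE, adjusted p = 0.000191 by limma). For both genes BSM replicate 1 was well above the other BSM libraries and still far below BMDM. Without BSM replicate 1 the ratio of the means went from 9.13 to 14.4 for Samhd1 and from 13.02 to 20.5 for Sp100.

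Xaf1, a pro-apoptotic protein, had FPKM of 37.0, 24.8 and 23.4 in BMDM and of 0.586, 10.1 and 7.92 in BSM. Its log2 fold change of 2.42 ± 0.68 (SE, adjusted p = 0.0188 by limma) became 1.47 (adjusted p = 0.0858) after quantile normalization. Xaf1, like Dtx3l and Ifih1, was also not called without BMDM replicate 1 or with no minimum. It was not called without BMDM replicate 2 either (adjusted p = 0.0624 by limma). Without BSM replicate 1 the estimate was 1.53 (adjusted p = 0.00187 by limma). Ifi35 and Ifi44 were below the minimum. Ifi35 was between 0.688 and 1.44 in BMDM and between 0.325 and 0.401 in BSM, and Ifi44 was between 0.540 and 0.765 in BMDM and at most 0.0123 in BSM.

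Parp14, Parp9 and Dtx3l, neighbours on chromosome 16 that encode ADP-ribosyltransferases and a ubiquitin ligase, each had an FPKM above 2 in BSM replicates 2 and 3. Parp14 had FPKM of 25.3, 22.0 and 23.6 in BMDM and of 6.49, 10.1 and 9.34 in BSM, without overlap. Its log2 fold change was 1.37 ± 0.24 (SE, adjusted p = 0.00238 by limma), and it was 0.59 (adjusted p = 0.0916) after quantile normalization. Dtx3l had FPKM of 6.93, 6.16 and 9.11 in BMDM and of 0.00675, 2.76 and 2.33 in BSM. Its log2 fold change of 1.84 ± 0.49 (SE, adjusted p = 0.0155 by limma) became 1.09 (adjusted p = 0.0671) after quantile normalization and 1.23 without BSM replicate 1. With the ALEXA-Seq values Dtx3l was not called (adjusted p = 0.0504 by limma).

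Parp9 had FPKM of 4.45, 8.06 and 4.68 in BMDM and of 2.39, 2.93 and 3.59 in BSM. The groups did not overlap, but Parp9 was not called, with a log2 fold change of 0.73 ± 0.28 (SE, adjusted p = 0.0578 by limma) that was 0.01 after quantile normalization. Parp9 and Dtx3l are neighbours that overlap in the deposited table, so reads of the shared part cannot be assigned to either.

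The GTPases of intracellular immunity held the gene with the least difference. Ifi47 (IRG-47) had FPKM of 4.68, 7.08 and 5.65 in BMDM and at most 0.0510 in BSM, with a log2 fold change of 2.70 ± 0.26 (SE, adjusted p = 0.000136 by limma). Irgm1, a regulator of the other GTPases, had FPKM of 4.96, 7.56 and 6.42 in BMDM and of 0.165, 1.65 and 1.75 in BSM, with a log2 fold change of 1.83 ± 0.38 (SE, adjusted p = 0.005 by limma). Both were called after quantile normalization as well, whereas Irgm1 was not called after upper quartile scaling or scaling to the same sum.

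Gbp2 had FPKM of 3.85, 1.80 and 3.09 in BMDM and of 0.0228, 0.606 and 0.534 in BSM, without overlap. Its log2 fold change of 1.49 ± 0.34 (SE, adjusted p = 0.00777 by limma) became 0.67 (adjusted p = 0.137) after quantile normalization. Gbp3, its neighbour on chromosome 3, had FPKM of 6.04, 3.80 and 6.69 in BMDM and of 11.4, 1.29 and 1.51 in BSM. BSM replicate 1 was thus higher than every BMDM library and the other BSM libraries lower than every BMDM library. The log2 fold change of Gbp3 was 0.62 with a 95% confidence interval from -0.82 to 2.06 (adjusted p = 0.419 by limma), and without BSM replicate 1 it was 1.41 (adjusted p = 0.00296 by limma).

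Igtp (Irgm3) had nearly the same values in all libraries. Its FPKM were 2.84, 2.58 and 2.41 in BMDM and 3.29, 2.60 and 2.15 in BSM, and the ranges of the groups overlapped. The log2 fold change was -0.02 ± 0.24 (SE, adjusted p = 0.954 by limma), with a 95% confidence interval from -0.57 to 0.54. After quantile normalization it was -0.79 (adjusted p = 0.041 by limma), so that Igtp was called higher in BSM relative to the median gene. It passed the minimum only through BSM replicate 1 and was not tested without that library, so this call rests on the group and the library in which it was highest. The ALEXA-Seq values of Igtp also overlapped, at 59.8, 55.5 and 48.5 in BMDM and 71.6, 60.4 and 47.2 in BSM. The locus of Igtp overlaps that of Irgm2 in the deposited table.

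Few of the genes reached an FPKM of 3 in BSM. An FPKM of 1 or more was reached by 9, 16 and 15 of the 42 in BSM replicates 1, 2 and 3, and by 33, 36 and 37 in those of BMDM. Over all genes, too, the paper lists fewer at this level in every BSM library than in any BMDM library. In BSM replicates 2 and 3 the highest were Parp14 (10.1 and 9.34), Xaf1 (10.1 and 7.92), Samhd1 (7.28 and 7.05) and Sp100 (6.43 and 6.73). Trim25 (5.17 and 4.90) and Ddx58 (3.79 and 4.97) followed, but in replicate 2 Oasl2 (4.44) and Ifitm3 (3.89) lay above Ddx58. Of the 42 genes, BSM replicate 1 listed 15 at 0 (35.7%), and replicates 2 and 3 listed 3 and 1 at 0. Of the 31 tested genes of the set it listed 8 at 0 (25.8%, against 7.42% of all tested genes). No gene was listed at 0 in BMDM. Of the 15, 3 had an ALEXA-Seq value above 0 in the same library. BSM replicate 1 lay below both other BSM libraries for 29 of the 42 and above both for 10. Among the 31 tested these were 21 (67.7%, against 59.7% of all tested genes) and 8 (25.8%, against 31.3%). The 10 were Ifit1, Mx1, Oas1a, Oas1b, Ddx58, Ifi35, Samhd1, Sp100, Igtp and Gbp3, and 8 of them were also above both in the ALEXA-Seq table. Replicate 1 is also the male BSM library, so sex, RNA input and RNA integrity cannot be told apart here.

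**Figure D3:**
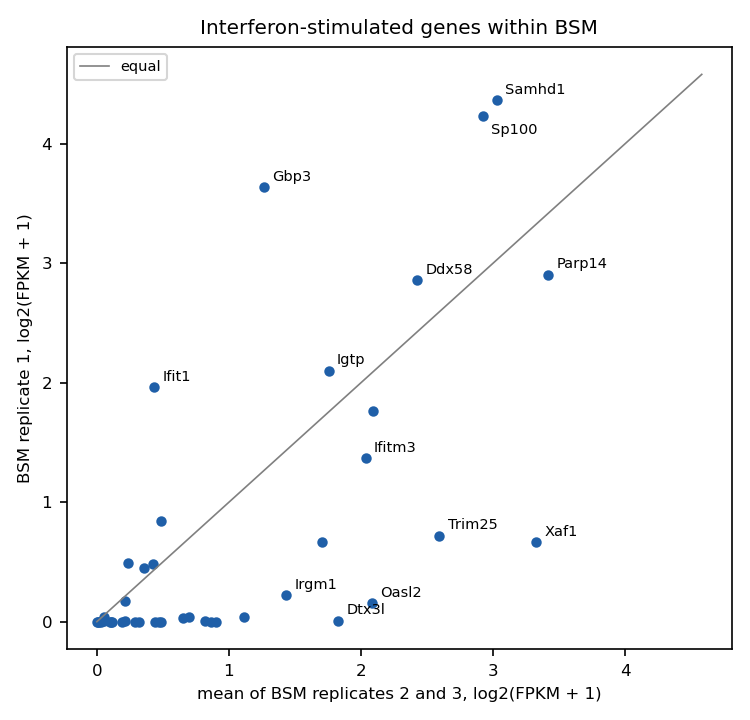
Log2(FPKM + 1) of the 42 interferon-stimulated genes in BSM replicate 1 (vertical axis) against the mean of BSM replicates 2 and 3 (horizontal axis), 1 point per gene, with the line of equal values. Gbp3, Samhd1, Sp100 and Ifit1 lie above the line, whereas Xaf1, Trim25, Oasl2 and Dtx3l lie far below it.

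Among the BMDM libraries, replicate 2 was above both others for 20 of the 42 genes and below both for 14. Among the 31 tested these were 13 (41.9%, against 50.5% of all tested genes) and 12 (38.7%, against 30.1%). The genes highest in replicate 2 included all 4 IFITM genes, Oas2, Oas3, Mx1, Isg15 and Rsad2. Those highest in replicate 3 included Ifit2, Ifit3, Ifi203, Ifi204, Oasl2, Usp18 and Sp100. The genes thus had no common order among the BMDM libraries.

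The rest of the interferon pathway was examined through 3 lists. Among 72 other interferon-stimulated genes 39 were tested, and BMDM was higher for 27 and BSM for 1, with a median log2 fold change of 1.29. Of all tested genes 45.3% and 9.22% were called in these directions. After quantile normalization BMDM was higher for 12 and BSM for 5 (21.7% and 19.3% of all tested genes), with a median of 0.49. The largest differences were those of Ms4a4c, a membrane protein of the CD20 family, at 5.01 ± 0.24 (SE, adjusted p = 4.88e-06 by limma), of Pyhin1, an Ifi200 relative, at 4.75 ± 0.47 (adjusted p = 0.000149), and of Slfn5, a Schlafen protein, at 4.70 ± 0.24 (adjusted p = 6.28e-06). Ms4a4c had FPKM of 39.2, 30.2 and 40.2 in BMDM, was listed at 0 in BSM replicate 1 and had 0.279 and 0.201 in BSM replicates 2 and 3. The gene higher in BSM was Fcgr1, the high-affinity IgG receptor, with FPKM of 1.87, 3.01 and 2.81 in BMDM and of 14.05, 9.05 and 8.92 in BSM, and its log2 fold change was -1.70 ± 0.27 (SE, adjusted p = 0.00155 by limma). Of the other Ifi200 relatives tested, Mnda was higher in BMDM by 3.99. Aim2 was not called (-0.56, adjusted p = 0.196 by limma), but after quantile normalization it was called higher in BSM (-1.33, adjusted p = 0.0216 by limma).

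Of 19 genes for interferon receptors and signalling 14 were tested, of which 9 were higher in BMDM and none was higher in BSM. Of all tested genes 45.3% and 9.22% were called in these directions. The median log2 fold change was 0.92, near the 0.81 of all tested genes. After quantile normalization BMDM was higher for 3 and BSM for 1, where 21.7% and 19.3% of all tested genes were called. After scaling to the same sum BMDM was higher for 1 and BSM for 4, against 15.2% and 24.9% of all tested genes. The count of 9 fell to 5 without BMDM replicate 2 and to 3 without BMDM replicate 3, where 44.8% and 39.4% of all tested genes were called. Among the genes higher in BMDM were the phosphatase Ptpn6 (1.93 ± 0.36, adjusted p = 0.00314 by limma) and the kinase Jak2 (1.72 ± 0.32, adjusted p = 0.00327). Jak2 had FPKM of 10.6, 15.8 and 12.8 in BMDM and of 1.74, 4.09 and 4.38 in BSM, without overlap. The receptor chain Ifnar1 had FPKM of 10.3, 7.20 and 11.6 in BMDM and of 14.35, 8.78 and 8.33 in BSM, with overlap, and a log2 fold change of -0.09 (adjusted p = 0.812 by limma).

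The 22 genes for the induction of interferon, which comprise the sensors, their adaptors and the interferons themselves, had 9 tested members with a median log2 fold change of 0.08. Of these 1 was higher in BMDM and 3 were higher in BSM, where 45.3% and 9.22% of all tested genes were called. After quantile normalization none was higher in BMDM and 5 were higher in BSM, against 21.7% and 19.3% of all tested genes. Tlr3, the receptor for double-stranded RNA in endosomes, had FPKM of 0.448, 0.404 and 0.536 in BMDM and of 24.5, 13.2 and 12.4 in BSM, with a log2 fold change of -3.54 ± 0.30 (SE, adjusted p = 6.53e-05 by limma). Tlr7, the receptor for single-stranded RNA, had FPKM of 15.1, 13.8 and 13.5 in BMDM and of 72.6, 52.2 and 47.3 in BSM, with a log2 fold change of -1.92 ± 0.24 (SE, adjusted p = 0.000488 by limma). For both receptors the groups were far apart.

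Tmem173 (STING), the adaptor for cytosolic DNA, had FPKM of 2.81, 4.03 and 3.48 in BMDM and of 4.56, 7.17 and 7.32 in BSM, without overlap, and a log2 fold change of -0.71 ± 0.26 (SE, adjusted p = 0.0486 by limma), and Irf5, a transcription factor of interferon and cytokine genes, was higher in BMDM by 0.94 ± 0.28 (SE, adjusted p = 0.0226). The count of 4 called genes fell to 2 when BMDM replicate 2, BMDM replicate 3, BSM replicate 2 or BSM replicate 3 was left out. Between 39.4% and 49.8% of all tested genes were called in these fits. Of the interferon genes, Ifna2, Ifna4 and Ifng were listed at 0 in all 6 libraries, Ifnb1 was listed at 0 in 5 and at 0.0149 in BSM replicate 3, and Ifnk was no higher than 0.6996 in BMDM and 0.0992 in BSM. The tables hold no read numbers per gene, so no upper limit is given for them.

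**Figure D4:**
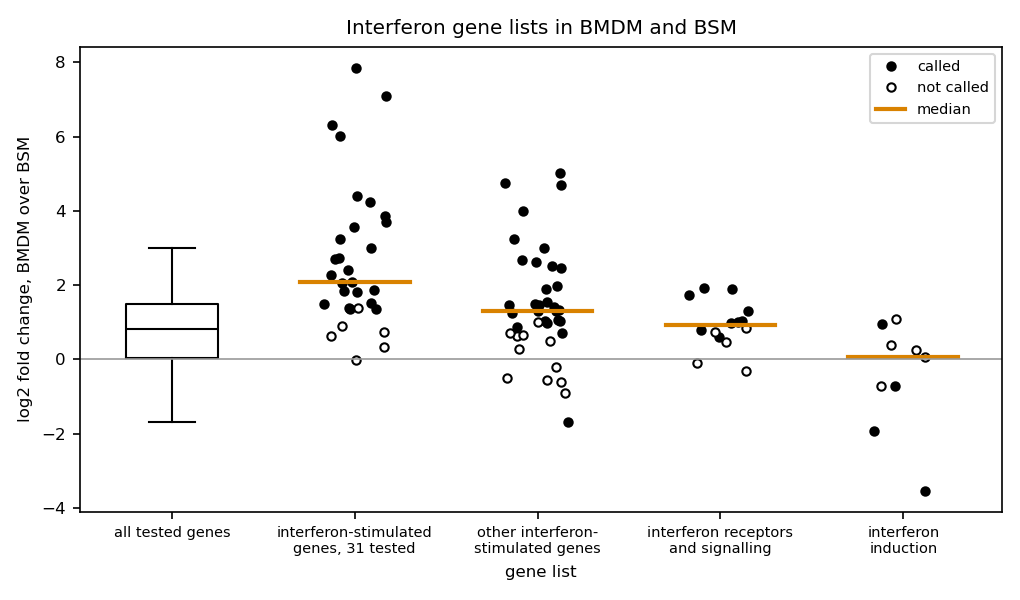
Log2 fold change of BMDM over BSM for the 31 tested genes of the set, 39 other interferon-stimulated genes, 14 receptor and signalling genes and 9 induction genes (points, filled where called, orange bars at the medians 2.10, 1.29, 0.92 and 0.08), beside all 6364 tested genes as a box with whiskers from the 5th to the 95th percentile. The genes of the set reach the highest values, and the lowest point is Tlr3 among the induction genes.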

How the data were processed

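The authors aligned paired-end reads with TopHat and deposited Cufflinks FPKM per gene, together with a gene-level signal from ALEXA-Seq on a linear scale whose unit is not given in the sources used here. The submitters' processing notes name mm9, CASAVA 1.7.0, TopHat 1.3.1, Bowtie 0.12.7 and Cufflinks 1.0.3. Neither table holds read numbers per gene, so no count test was used and no counting interval is given.

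Starts in the deposited table are counted from 0 and were printed from 1. The groups, replicate numbers and sexes came from the sample labels. Each library was made from a pool of mice. Whether a BMDM and a BSM library shared mice is not stated in the sources used here. The libraries were fitted as unpaired, and the p-values measure the spread among these 6 libraries. FPKM of at least 3 in at least 1 library was required. The study's methods put this minimum on FPKM adjusted for ribosomal reads, whereas here it was put on the FPKM as deposited. Log2(value + 1), a scale that understates the changes of low genes, was compared with limma 3.58.1 in R 4.3.3 (moderated by empirical Bayes with a trend on the mean, Benjamini-Hochberg adjustment). The 6364 genes with the highest ALEXA-Seq signal were tested in the same way. The fit was tested on simulated data. Promoter windows came from RefSeq (GRCm38.p6) and were not combined with mm9 positions. Near-identical copies are blastn 2.17.0 matches between GENCODE M21 transcripts, 100 bases or longer and identical at 95% or more of them.

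The members and the lists were chosen with earlier results of these data known. Full statistics were given for the 5 called in both tables that differed most and for those higher in BSM or changing call with quantile normalization. From each other list the 3 largest called genes in each direction were named, apart from a gene not reported here, and other genes and statistics were added after the values were seen. The alternatives were a pseudocount of 0.1, a minimum of 1 or none, quantile normalization, upper quartile scaling, scaling to the same sum, library quality weights, moderation with no trend, a block for the replicate number, medians for the ratios, a window of 150 bases before the start, and leaving out each library. Quantile normalization without BSM replicate 1 was added after seeing the data. The study's Exon arrays were not used here.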

Additional observations from a re-analysis of the deposited data

Results flagged for a closer look

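In 2 tested genes BMDM was below BSM in the male libraries (replicate 1 of each cell type), whereas in the female libraries every BMDM value was above every BSM value. This difference was not tested, since there was only 1 male library of each cell type. Sex cannot be told apart from the low RNA input and low RNA integrity of BSM replicate 1. For Gbp3 the difference of BMDM minus BSM in log2(FPKM + 1) was -0.82 in the male libraries and 1.34 in the female libraries. For Ddx58 it was -0.22 in the male libraries and 0.63 in the female libraries. The ALEXA-Seq values of Ddx58 did not show this, at 30.4 in the male BMDM library and 18.4 in the male BSM library.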

How the results depend on the processing

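The 25 genes higher in BMDM numbered between 22 and 27 when each library was left out in turn, and the 24 called in the ALEXA-Seq table between 19 and 29. The share of all tested genes called, in either direction, then ran from 39.4% to 63.7%, and from 31.4% to 64.9% in the ALEXA-Seq table. The highest counts and the highest shares were those without BSM replicate 1. In the FPKM table Dtx3l, Ifih1 and Xaf1 lost their call without BMDM replicate 1, where Oasl1 gained one. Dtx3l, Ifih1 and Ifit2 lost it without BMDM replicate 3. In quantile normalization without BSM replicate 1, chosen after seeing the data, 18 were called, where 48.6% of all tested genes were called. Of 520 estimates of the 31 tested genes under an alternative, 455 kept their direction and their side of the threshold, 41 were no longer past it, 13 came to pass it and 11 turned in direction, in 4 genes that were not called. Ddx58 was -0.37 after quantile normalization, -0.38 after upper quartile scaling, -0.79 after scaling to the same sum and -0.19 after quantile normalization without BSM replicate 1. Gbp3 was -0.029 after quantile normalization, -0.032 after upper quartile scaling and -0.40 when all sums were made equal. Parp9 was -0.33 after scaling to the same sum and -0.017 after quantile normalization without BSM replicate 1. Igtp was 0.030 with library quality weights and between -0.12 and 0.022 with a library left out, the latter without BMDM replicate 3. The cause of these turns was not tested.

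The 28 called genes among the other interferon-stimulated genes (27 higher in BMDM, 1 in BSM) became 17 with quantile normalization and 17 with equal sums (12 and 5 in each). The 9 receptor and signalling genes (all higher in BMDM) became 4 after quantile normalization and 4 after upper quartile scaling (3 higher in BMDM, 1 in BSM in each) and 5 with equal sums (1 and 4), and between 3 and 10 with a library left out. The 4 induction genes became 7 with library quality weights and between 2 and 5 with a library left out. Of all tested genes 54.5% were called with the deposited values and 73.9% with library quality weights. The share was 40.9% after quantile normalization, 38.2% after upper quartile scaling and 40.1% with equal sums. With a library left out it was between 39.4% and 63.7%. The weights stopped before full convergence. The cause of these changes was not tested.

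The labels number the replicates alike in both groups. The deviations of same-numbered libraries from their group means correlated at -0.02, -0.01 and 0.13. The numbers were not taken to pair the libraries, but so few values cannot exclude that libraries shared mice. With the replicate number as a block, 25 genes of the set were called, and all 25 were those called without it. Of all tested genes 54.5% were called in that fit, in either direction. The tables hold no read numbers per gene, which limits what can be said of genes listed at 0.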
